A study of Rattus norvegicus with 9 samples.

Results

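Sdc1, Anxa2, Pex11a, Gbp2, Bcr and Haus6 are 6 genes whose transcripts, in rat adrenal zona glomerulosa cells, stood above control after angiotensin II (Ang II) and below control after potassium. They were chosen on these same arrays by that pattern, so their levels and directions are given as a description and carry no test. The pattern, with both differences from control past an adjusted p of 0.05 in a limma fit, was found in 21 of 18625 tested probe sets, or 0.113%. A probe set is the group of oligonucleotides that together read 1 transcript. Of the 21, 14 carried a single gene symbol and named 14 genes, and 7 did not and are not named. The 6 genes described here are among the 14, out of 14217 genes named on the array. They had 10 probe sets of the 31042 on the array that are not controls, and 9 of the 10 were bright enough to be tested.

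RNA was measured on 9 Affymetrix Rat Genome 230 2.0 arrays, 1 for each tube of cells. Cells were freshly dispersed from the zona glomerulosa, the outermost zone of the adrenal cortex and the source of aldosterone. Every tube was kept for 2 h at 37 °C in DMEM:F12 medium with bovine serum albumin, freed of fatty acids, at 0.5%: control tubes had nothing added, Ang II tubes had 100 nM of the hormone, and potassium tubes had 16 mM potassium. Each of 3 independent cell preparations supplied 1 tube to each of the 3 groups, so preparation n of one group is paired with preparation n of the others. No source used here gives the strain, sex or age of the rats, or how many animals made up a preparation.

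Ang II and extracellular potassium are the main physiological stimuli of aldosterone secretion. Ang II acts through a G protein-coupled receptor that releases calcium from stores and activates protein kinase C, whereas potassium depolarises the membrane and opens voltage-gated calcium channels. Both raise cytosolic calcium. The 6 genes have unrelated products. Sdc1 encodes syndecan-1, a cell-surface heparan sulfate proteoglycan; Anxa2 encodes annexin A2, a calcium-dependent membrane-binding protein. Pex11a encodes a protein of the peroxisome membrane that takes part in peroxisome proliferation. Gbp2 encodes an interferon-induced guanylate-binding GTPase, Bcr the breakpoint cluster region protein, a signalling protein, and Haus6 a subunit of augmin, the complex that seeds new microtubules on existing ones in the spindle.

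No motif of those searched occurred in all 6 promoters. Promoters were taken from RefSeq, rat assembly GRCr8, as 300 bases from 250 before to 50 after the annotated start, and all 6 genes matched. A set of 9 short motifs was searched on both strands, and 4 of them occurred in a member. The 3 promoters below are shown because they span the range found: a GC-rich promoter with GC boxes only, a GC-rich promoter with an AP-1 motif and a TATA box, and an AT-richer promoter with an AP-1 motif and an interferon element core. Capitals mark the GC box GGGCGG, the AP-1 motif TGANTCA, the TATA box TATAAA and the interferon-stimulated element core GAAANNGAA, each in either orientation. Sdc1 lies at chr6:37281791-37282090 on the plus strand, Anxa2 at chr8:78986002-78986301 on the plus strand and Gbp2 at chr2:234005477-234005776 on the plus strand.
Sdc1: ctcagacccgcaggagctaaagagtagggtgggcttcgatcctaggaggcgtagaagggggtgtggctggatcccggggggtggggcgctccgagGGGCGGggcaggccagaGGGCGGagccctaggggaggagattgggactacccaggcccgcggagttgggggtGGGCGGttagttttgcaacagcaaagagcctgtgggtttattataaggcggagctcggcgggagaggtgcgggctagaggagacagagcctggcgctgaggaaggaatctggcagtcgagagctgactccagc
Anxa2: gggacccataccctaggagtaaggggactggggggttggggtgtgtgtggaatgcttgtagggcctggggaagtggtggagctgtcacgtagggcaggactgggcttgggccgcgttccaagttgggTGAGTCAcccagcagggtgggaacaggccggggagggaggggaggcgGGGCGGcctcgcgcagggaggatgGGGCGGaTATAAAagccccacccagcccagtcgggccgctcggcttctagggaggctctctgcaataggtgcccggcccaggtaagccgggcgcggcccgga
Gbp2: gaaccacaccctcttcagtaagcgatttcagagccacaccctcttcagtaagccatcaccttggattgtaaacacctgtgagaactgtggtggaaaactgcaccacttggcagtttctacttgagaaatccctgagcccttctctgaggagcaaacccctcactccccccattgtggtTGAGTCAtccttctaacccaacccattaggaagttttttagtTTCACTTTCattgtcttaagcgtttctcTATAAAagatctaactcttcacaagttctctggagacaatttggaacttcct

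The Sdc1 window held 3 GC boxes and no other motif of the set. The Anxa2 window held an AP-1 motif at -123 to -117 from the start, 2 GC boxes and a TATA box at -45 to -40. In Gbp2 an AP-1 motif lay at -72 to -66, a TATA box at -2 to 4 and the interferon element core, in the reverse orientation TTCACTTTC, at -30 to -22. Haus6 (chr5:106199023-106199322, minus strand) also held that core, as GAAACCGAA at -234 to -226, with 1 GC box. Pex11a (chr1:143096442-143096741, minus strand) held 1 GC box and Bcr (chr20:13596284-13596583, minus strand) held 2. Among 33365 distinct rat promoters of the same length, 33.1% held the GC box, 14.2% the TATA box, 9.71% the interferon core and 7.34% the AP-1 motif. None of the 6 windows held the CRE TGACGTCA, the E box CACGTG, the STAT motif TTCNNNGAA, the nuclear receptor element AGGTCA or the Egr motif GCGNGGGCG. GC content was 44.7% in Gbp2 and between 58.7% and 68% in the other 5, against a median of 51.7% over all promoters. Gbp2 held 2 CG dinucleotides and the others 17 to 26, against a median of 7. These are matches of letters in a window and do not show that a factor binds there.

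Values below are the deposited signals, in linear units, of the probe set with the highest mean signal for each gene. Signals of different probe sets are not on a common scale, so levels are compared across arrays for 1 gene and not between genes. Differences are on the scale log2(signal + 16), with the standard error (SE) of the fit over all 9 arrays; folds are taken from that scale and understate the change of dim genes. The number of arrays, 3 in each group, limits the precision of every value. Where groups are said not to overlap, this follows largely from the choice of the genes on these contrasts. How many of all tested probe sets separate in that way was not counted.

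Syndecan-1 had the largest fall after potassium of the 6 genes, on the log2 scale. Sdc1 (probe set 1367849_at) read 792, 762 and 926 in the control arrays of preparations 1, 2 and 3. After Ang II it read 1231, 1100.4 and 1248, and after potassium 303, 381 and 470.2. The 3 groups did not overlap, and potassium arrays were the lowest in every preparation. The means were 827 ± 87.5 (SD, n = 3) in control, 1193 ± 80.9 after Ang II and 385 ± 83.5 after potassium. The log2 difference from control was 0.52 ± 0.12 (SE) after Ang II and -1.09 ± 0.12 after potassium, which correspond to 1.44-fold higher and 2.13-fold lower. The difference between the stimuli was 1.61 ± 0.12, or 3.06-fold, and ranked 18 of 18625 from the top for Ang II over potassium.

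Annexin A2 had the tightest control values of the set relative to its level. Anxa2 (1367584_at) read 7882, 7932 and 7844 in control, 9587, 9644 and 9797 after Ang II, and 4838, 5669.8 and 6089 after potassium. No array of a group overlapped another group, and the potassium arrays were the most spread, with a mean of 5532 ± 637 (SD, n = 3) against 7886 ± 43.7 in control and 9676 ± 108 after Ang II. The log2 difference was 0.29 ± 0.07 after Ang II and -0.52 ± 0.07 after potassium, or 1.23-fold higher and 1.43-fold lower. The stimuli differed by 0.81 ± 0.07.

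Pex11a (1379361_at), the peroxisomal membrane gene, had the highest rise after Ang II of the 6. It read 633, 381 and 491 in control, 1015, 835 and 898 after Ang II, and 378, 299 and 372 after potassium. Control preparation 2, at 381, lay just above the highest potassium array, at 378, so control and potassium were separated by a narrow margin. The means were 502 ± 126 (SD, n = 3), 916 ± 91.5 and 349 ± 43.9 in that order. The log2 difference was 0.87 ± 0.12 after Ang II (1.83-fold) and -0.48 ± 0.12 after potassium, and the stimuli differed by 1.35 ± 0.12.

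Gbp2 (1368332_at), the interferon-induced GTPase, moved less but evenly. It read 9431, 10625 and 9058 in control, 12185, 14000.5 and 11435 after Ang II, and 7599, 8773 and 8062 after potassium. Preparation 2 was the highest of its group in all 3 groups, and the groups did not overlap. The log2 difference was 0.37 ± 0.06 after Ang II, with 0.34 to 0.40 in the 3 preparations, and -0.25 ± 0.06 after potassium, with -0.31 to -0.17. The stimuli differed by 0.62 ± 0.06, or 1.54-fold, the smallest difference of the 6 genes.

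Bcr (1373494_at), which encodes the breakpoint cluster region protein, was the only gene of the 6 in which control and potassium arrays overlapped. It read 6506, 5069 and 6065 in control, 8664, 7108 and 7644 after Ang II, and 4870.1, 4493 and 5213 after potassium. Control preparation 2, at 5069, was below potassium preparation 3, at 5213. Within each preparation potassium was lower than control, by 0.42, 0.17 and 0.22 on the log2 scale in preparations 1, 2 and 3. The mean log2 difference was 0.41 ± 0.07 after Ang II and -0.27 ± 0.07 after potassium, and the stimuli differed by 0.68 ± 0.07.

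Haus6 (1378493_at), the augmin subunit, read 781, 729.9 and 674 in control, 1465, 1196 and 1063 after Ang II, and 406, 604 and 509 after potassium. The groups did not overlap. Preparation 1 was both the highest array after Ang II and the lowest after potassium, and its log2 difference between the stimuli was 1.81 against 0.97 and 1.04 in the others. The mean log2 difference was 0.75 ± 0.14 after Ang II and -0.53 ± 0.14 after potassium, or 1.68-fold higher and 1.44-fold lower. The stimuli differed by 1.27 ± 0.14.

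**Figure D1:**
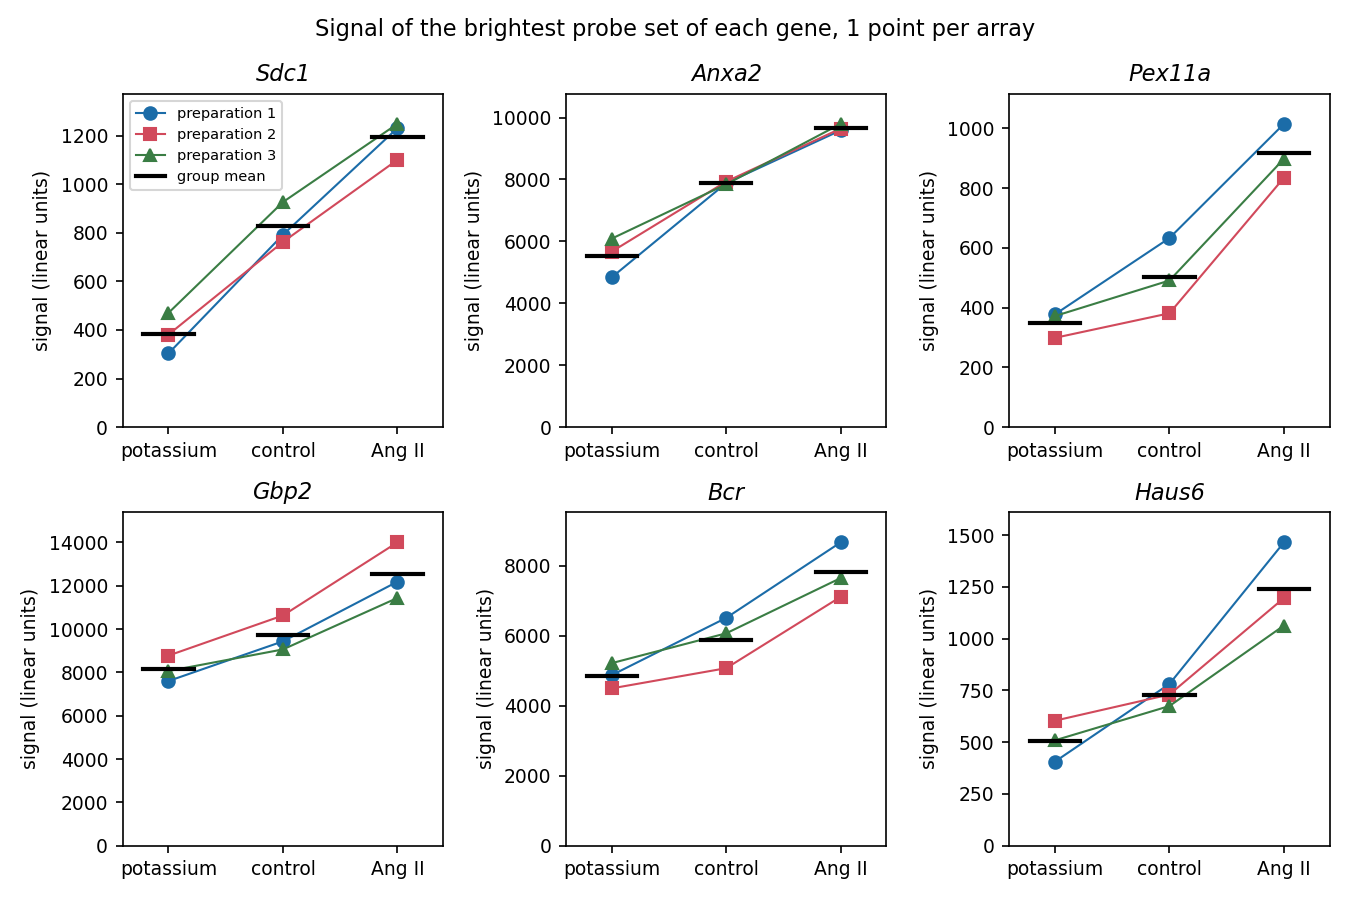
Deposited signal (linear units, y axis from 0) of the brightest probe set of each gene by group, 1 point per array, with lines joining the 3 arrays of a preparation and black bars at the group means. Each line rises from potassium through control to Ang II in all 3 preparations, and Bcr is the gene in which control and potassium arrays overlap.

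The plot of deposited signals by group shows that all 6 brightest probe sets kept the order potassium, control, Ang II inside each of the 3 preparations, which is the pattern they were chosen by. How many of all tested probe sets kept that order was not counted. In counts, 6 of 6 passed the threshold as higher after Ang II, where 1.64% of all tested probe sets did. Likewise 6 of 6 passed as lower after potassium, where 2.59% did, and 6 of 6 as higher after Ang II than after potassium, where 3.10% did. Since the members were chosen on these contrasts, nothing is read from the counts. The contrasts against control share the 3 control arrays: an array low in control raises one difference and lowers the size of the other.

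Which stimulus gave the larger mean difference from control varied within the set, and the comparison depended in part on the scaling of the arrays. In deposited signals, for Sdc1 the fall after potassium was 2.08 times the rise after Ang II on the log2 scale, and for Anxa2 it was 1.75 times. It was the larger of the pair in 3 of 3 preparations for both genes. For the other 4 the rise after Ang II was the larger: 1.46 times the fall in Gbp2, in 3 of 3 preparations, and 1.52 times in Bcr, 1.82 times in Pex11a and 1.42 times in Haus6, in 2 of 3 preparations each. No SE was computed for the rise less the fall, so the ratios are a description and do not settle which stimulus moved a gene farther. They moved with the scaling to array medians described below. After that scaling the fall of Sdc1 stayed the larger in the mean. In its preparation 2, however, the difference was 0.782 after Ang II and -0.685 after potassium. Anxa2 then had a rise of 0.42 and a fall of 0.39 on the log2 scale, each with an SE of 0.12, so neither was clearly the larger. With control preparation 2 also left out, its differences were 0.33 after Ang II and -0.48 after potassium. With the scaling alone, Gbp2 stood at 0.49 and -0.13 and Bcr at 0.53 and -0.15, further apart than before. As patterns across the 9 arrays, centred within each preparation, Gbp2 and Bcr were the closest pair, with a root mean square difference of 0.0465 log2 units. Sdc1 and Gbp2 were the farthest apart, at 0.445.

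The second probe sets of 4 of the genes were dim and did not all follow. That of Sdc1 (1376062_at) read 195, 31.6 and 164 in control, 219, 273 and 338 after Ang II and 92.4, 53.1 and 33.0 after potassium. Its Ang II arrays lay above all the others, while control and potassium overlapped; the log2 differences were 1.24 ± 0.42 and -0.77 ± 0.42. That of Pex11a (1387740_at) had differences of 0.38 ± 0.29 and -0.35 ± 0.29, the same signs as the brighter set, with Ang II arrays overlapping control. That of Anxa2 (1392250_at) did not share the pattern: it read 158, 244 and 105 in control, 154, 141 and 135 after Ang II and 125, 149 and 33.4 after potassium, with differences of -0.15 ± 0.31 and -0.75 ± 0.31. That of Haus6 (1377641_at), at 6.65 to 55.8 over the 9 arrays, was below the brightness needed for testing, and its difference after potassium was -0.06. Of the 3 second probe sets that were tested, 1 passed the threshold, in 1 contrast: Sdc1, higher after Ang II than after potassium. Gbp2 and Bcr had 1 probe set each.

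The deposited arrays had been set to a common trimmed mean, but their medians were not equal, and this bears on the potassium fall. Array medians over all probe sets ran from 128.04 to 172.87, a difference of 35.0%. The control array of preparation 2 had the highest, and the other 8 lay between 128.04 and 143.56. When each array was scaled to a common median over all probe sets, the median log2 difference of all probe sets moved from -0.06 to 0.05 after Ang II and from -0.06 to 0.05 after potassium. The mean sign of each brightest probe set was kept: the 6 rises after Ang II became larger and the 6 falls after potassium smaller. Sdc1 then stood at 0.64 and -0.97, Anxa2 at 0.42 and -0.39, and Pex11a at 0.99 and -0.36. Gbp2 stood at 0.49 and -0.13, Bcr at 0.53 and -0.15, and Haus6 at 0.87 and -0.41, with an SE of 0.12 for Gbp2 and Bcr and 0.15 for Haus6. For these last 3 genes the potassium difference turned positive in preparation 2, at 0.02, 0.12 and 0.02, and stayed negative in preparations 1 and 3. After the scaling 5 members passed as higher after Ang II, 1 as lower after potassium (Sdc1), and 6 as higher after Ang II than after potassium. Of all probe sets, 455, 911 and 555 passed in these contrasts in that setting, in either direction. The members were chosen on these contrasts, so nothing is read from their counts. With the scaling applied and control preparation 2 left out, an alternative added after its median was seen, the potassium differences were -0.48 for Anxa2, -0.21 for Gbp2, -0.27 for Bcr and -0.54 for Haus6. Gbp2, Bcr and Haus6 still did not pass after potassium in that setting. There 1 gene of the 6, Pex11a, passed both contrasts against control, where 6 of all probe sets had the pattern. The part of that array's brightness in the smaller falls was not tested further. Scaling to the median over the tested probe sets, where medians differed by 8.58%, kept the sign of all 6 genes in all 3 preparations. Of the second probe sets, that of Haus6 changed sign after potassium with scaling over all probe sets, from -0.06 to 0.02.

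**Figure D2:**
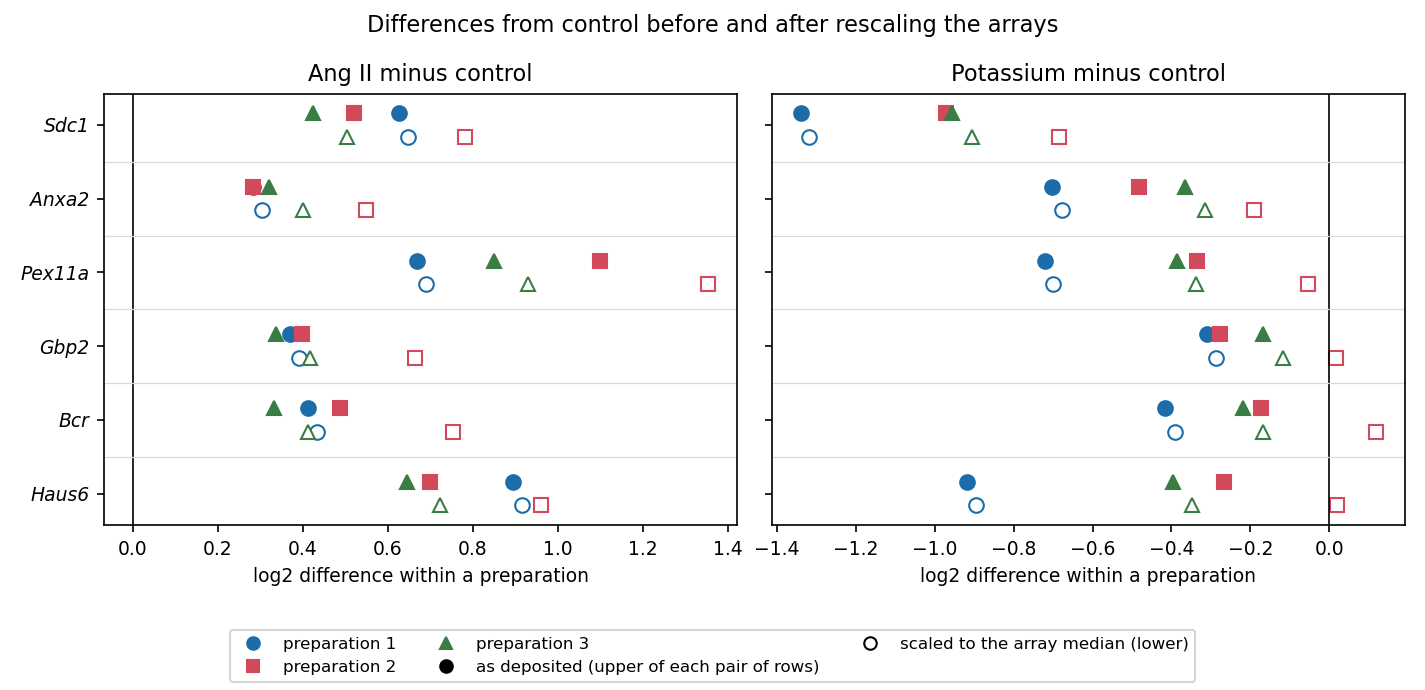
Log2 difference from the control tube of the same preparation (x axis) for Ang II (left) and potassium (right), with filled symbols for deposited signals and open symbols for signals scaled to the array median over all probe sets. Open red squares, preparation 2, move farthest to the right, and those of Gbp2, Bcr and Haus6 cross 0 for potassium.

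The plot of differences before and after scaling shows the shift to be nearly the same for all 6 genes of an array pair and largest in preparation 2. The difference between the stimuli does not use the control arrays and hardly moved, for example from 0.62 to 0.62 in Gbp2 and from 1.61 to 1.61 in Sdc1. Over the 22 alternative settings tried, the difference between Ang II and potassium passed the threshold for all 6 genes in each setting, and the signs against control never changed in the mean. Passing both contrasts against control was less stable, from 0 to 6 genes, where 1 to 26 of all probe sets had the pattern. The genes were chosen on these same arrays, so these counts are a description. Of all probe sets, 155 to 1006 passed between the stimuli over the same settings.

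No tested relative of the 6 genes passed the threshold as higher after Ang II and lower after potassium, a pattern that 0.113% of all tested probe sets had. For a pattern this rare, nothing is read from its absence among so few genes. Of the syndecans, Sdc2 had log2 differences of -0.02 ± 0.09 after Ang II and 0.04 ± 0.09 after potassium, and Sdc4, which is a focal adhesion syndecan, of -0.04 ± 0.07 and -0.19 ± 0.07; neither passed. Sdc3 was at -0.04 ± 0.24 and -0.54 ± 0.24 and did not pass. Of the annexins, none of Anxa1, Anxa3, Anxa4, Anxa5, Anxa6, Anxa8 and Anxa11 passed in any contrast, and Anxa9 was too dim to test. Anxa5 was at -0.24 ± 0.07 after potassium, with an adjusted p of 0.065 in the limma fit. Anxa7 fell after potassium by 0.27 ± 0.07 (limma adjusted p = 0.046, lower in 3 of 3 preparations). That call was lost in 18 of 22 settings, with limma adjusted p up to 0.54. Among them were both median scalings and leaving out any of the 9 arrays. The other Anxa7 probe set was at 0.09 ± 0.35. Pex11g, the other tested PEX11 gene, was at 0.92 ± 0.32 and 1.05 ± 0.32, and did not pass. Abr, the closest relative of Bcr, was at -0.18 ± 0.16 and 0.25 ± 0.16 and did not pass. None of the augmin subunits Haus1, Haus4, Haus5, Haus7 and Haus8 passed in any contrast.

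**Figure D3:**
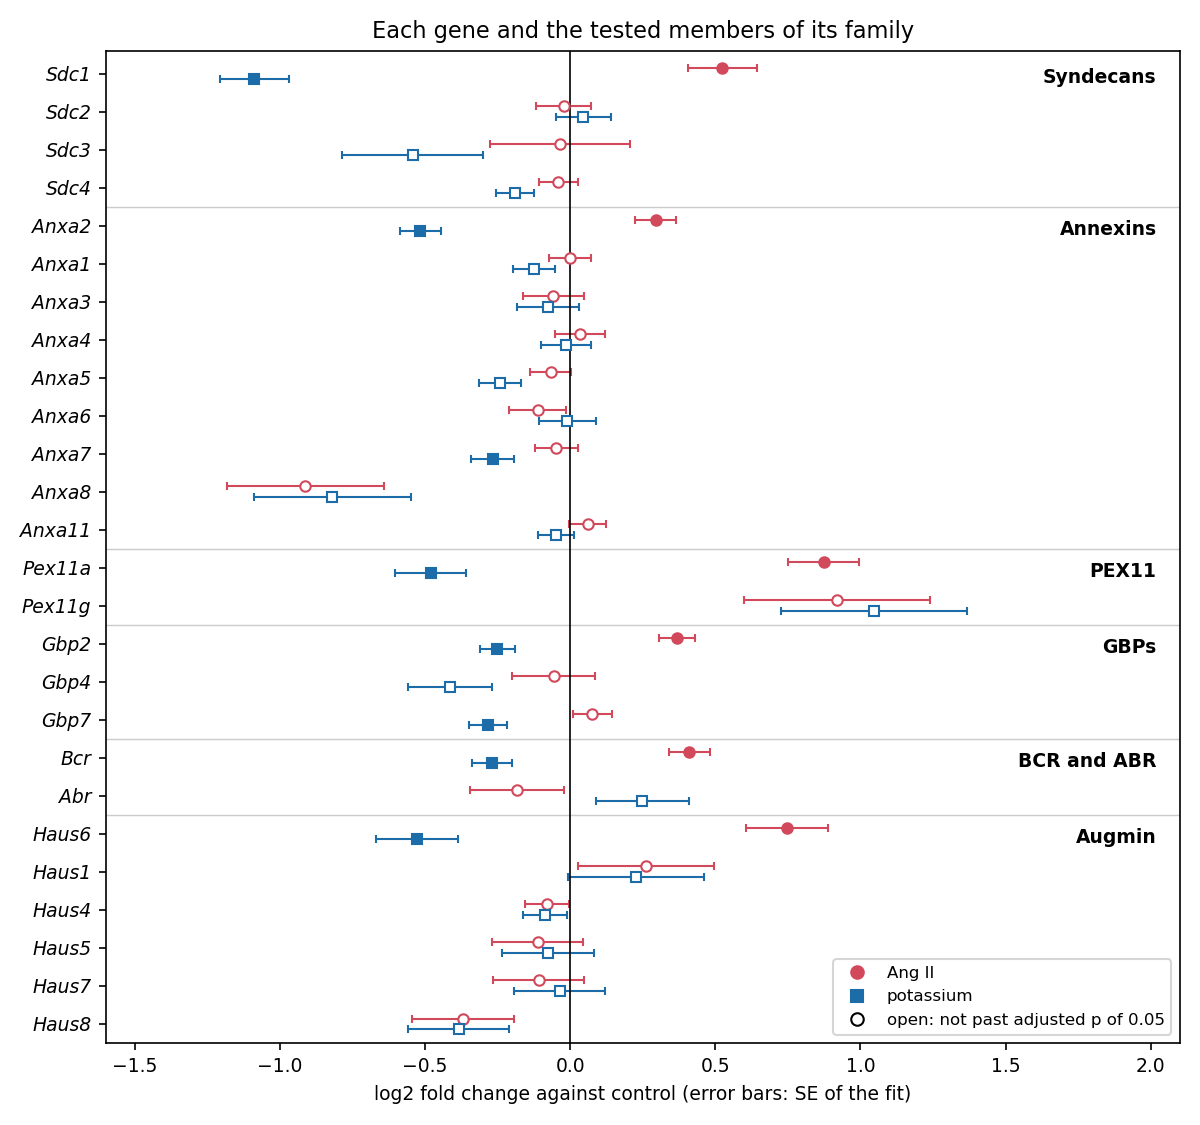
Log2 fold change against control (x axis) of each gene and the tested members of its family, with error bars of 1 SE from the fit; circles are Ang II, squares potassium, and filled symbols passed an adjusted p of 0.05. The filled circles to the right of 0 belong to the 6 chosen genes, which were chosen by these contrasts. Among their relatives the only filled symbols are the potassium values of Anxa7 and Gbp7.

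The plot of families sets the chosen genes against relatives that the choice did not use. The wider processes around 5 of the genes were described with a list for each, with 1 probe set to a gene. For heparan sulfate, 0 of 27 other tested genes passed after Ang II in either direction, where 1.64% of all tested probe sets were higher and 0.526% lower. After potassium 1 of 27 was lower and 0 higher, where 2.59% and 2.80% of all tested probe sets were. The gene was Ndst2, a heparan sulfate N-deacetylase and N-sulfotransferase, which went from 783 ± 190 (SD, n = 3) to 396 ± 9.41. It fell by 0.93 ± 0.13 (limma adjusted p = 0.00042) in 3 of 3 preparations and passed in all 22 alternative settings. Its Ang II mean was 557 ± 90.4, between the others, and it did not pass there.

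S100a10, the partner with which annexin A2 forms a heterotetramer, was the only one of 18 other tested genes of the annexin and S100 list to pass between the stimuli, where 3.10% of all tested probe sets were higher after Ang II and 1.70% lower. It read 16792 ± 721 after Ang II, 14152 ± 584 after potassium and 16192 ± 256 in control (SD, n = 3). Ang II was higher than potassium by 0.25 ± 0.06 (limma adjusted p = 0.026), in 3 of 3 preparations. That call was lost in 13 of 22 settings, with limma adjusted p up to 0.38. Among them were both median scalings, no filter, and leaving out any of the 3 potassium arrays or Ang II array 1 or 2. S100a10 passed in neither contrast against control. Of the peroxisome genes 46 besides Pex11a were tested: none passed after Ang II, none was lower after potassium, and 1 was higher, where 2.80% of all tested probe sets were. That was Pex5, the import receptor for peroxisomal matrix proteins, at 0.57 ± 0.10 (limma adjusted p = 0.0024), in the direction opposite to Pex11a. Its other probe set was at 0.53 ± 0.20 and did not pass. The list's median after potassium was -0.01, against -0.02 over all tested probe sets.

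Of 42 tested genes of augmin and microtubule nucleation besides Haus6, none passed in any contrast, where between 0.526% and 3.10% of all tested probe sets passed in a given contrast and direction.

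Of the 5 lists, the interferon targets around Gbp2 had the most genes past the threshold. Of 62 other tested genes, 9 were lower after potassium and 2 higher, where 2.59% and 2.80% of all tested probe sets were. After Ang II 1 was lower and none higher, where 0.526% and 1.64% were, and 7 were higher after Ang II than after potassium and none lower, where 3.10% and 1.70% of all tested probe sets were. The medians were -0.08 after potassium, -0.01 after Ang II and 0.07 between the stimuli, against -0.02, -0.03 and -0.01 over all tested probe sets. Over the alternative settings, with Gbp2 counted, between 2 and 13 genes of the list were lower after potassium and between 2 and 9 were higher after Ang II than after potassium. The list was chosen with earlier results of these data known, so its counts are a description.

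Gbp7, another guanylate-binding protein gene, went from 4502 ± 503 (SD, n = 3) in control to 4739 ± 449 after Ang II and 3707 ± 552 after potassium. Ang II was higher than potassium by 0.36 ± 0.07 (limma adjusted p = 0.0047), a call that was lost in 5 of 22 settings, with limma adjusted p up to 0.16: scaling to medians over all probe sets, no replicate block, no intensity trend, and without preparation 1 or 3. After potassium it fell by 0.28 ± 0.07 (limma adjusted p = 0.021). That call was lost in 12 of 22 settings, with limma adjusted p up to 0.47, among them both median scalings and leaving out array 1 or 3 of control or potassium. After Ang II it was at 0.08 ± 0.07. Gbp4 did not pass in any contrast. Cxcl11, a chemokine induced by interferon gamma, fell by 0.74 ± 0.09 after potassium (limma adjusted p = 9.5e-05) in 3 of 3 preparations and was at -0.03 after Ang II. The related chemokine Cxcl10 was 0.47 ± 0.07 higher after Ang II than after potassium (limma adjusted p = 0.0012), with 0.23 and -0.24 against control, neither of which passed. Cxcl9 fell by 0.56 ± 0.12 after potassium (limma adjusted p = 0.011); this was lost in 9 of 22 settings, with limma adjusted p up to 0.11, among them median scaling over all probe sets and leaving out control array 1 or 3 or potassium array 2 or 3, and its other probe set, at -0.27 ± 0.14, did not pass. Oasl, an antiviral 2'-5'-oligoadenylate synthetase-like gene, fell by 0.45 ± 0.09 after potassium (limma adjusted p = 0.0063). That call was lost in 7 of 22 settings, with limma adjusted p up to 0.19 and a difference as small as -0.31, among them median scaling over all probe sets and leaving out array 2 of control or potassium. It was 0.70 ± 0.09 higher after Ang II than after potassium (limma adjusted p = 0.00018).

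Not every gene of the list went with Gbp2. Irf1, the transcription factor that drives many interferon gamma targets, went from 6914 ± 273 (SD, n = 3) in control to 4962 ± 362 after Ang II and 4361 ± 453 after potassium. It fell by 0.48 ± 0.07 (limma adjusted p = 0.0012) and by 0.67 ± 0.07 (limma adjusted p = 2.5e-05), and the groups treated with either stimulus lay below control in 3 of 3 preparations. The Ang II call was lost when arrays were scaled to their medians over all probe sets and when the fit had no intensity trend, with limma adjusted p up to 0.16. The 2 genes higher after potassium were Irf2, a factor that competes with IRF1, at 0.57 ± 0.13 and Mx2, an antiviral GTPase, at 0.42 ± 0.10; both are named here after their values were seen. In bulk RNA fewer cells of a type and less RNA per cell cannot be told apart. The summed signal of 14 measured macrophage markers was 12910 to 17079 in control, 13126 to 17110 after Ang II and 11029 to 16405 after potassium. Bright markers weigh most in such a sum, here Lyz2 at 6732 ± 1362 (SD, n = 3) in control. Among dimmer ones, Csf1r had means of 346 in control and 267 after potassium, and Mrc1 of 256 and 383. The summed signal of 11 measured endothelial markers was 32152 to 41143, 32453 to 40524 and 34467 to 42586 in control, Ang II and potassium. These ranges overlapped, no gene of either list passed in any contrast, and the part of cell make-up in the interferon values was not tested further.

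**Figure D4:**
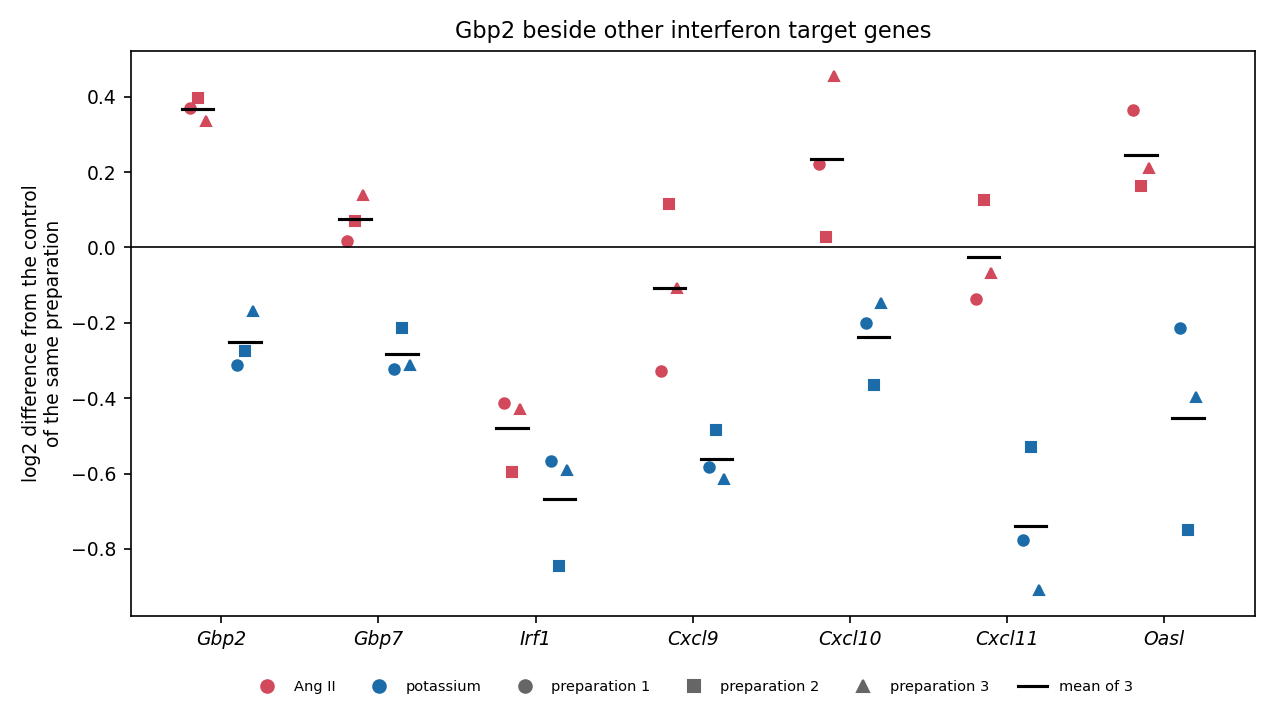
Log2 difference from the control tube of the same preparation (y axis) for Gbp2 and 6 other interferon target genes, 1 symbol per preparation, with red for Ang II, blue for potassium and black bars at the means of 3. Potassium symbols lie below 0 for all 7 genes, whereas Ang II symbols all lie above 0 for Gbp2, Gbp7, Cxcl10 and Oasl and all below 0 for Irf1. The genes beside Gbp2 were picked among those past the threshold in a contrast, so their directions follow in part from that choice. Irf2 and Mx2, which were higher after potassium, are not shown.

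The plot of interferon targets shows each preparation behind those values. The distance between the blue and red bars is the part that shares no control array; for Cxcl11 it was 0.71 ± 0.09 (limma adjusted p = 0.00014), for Oasl 0.70 ± 0.09 and for Gbp2, as a description, 0.62 ± 0.06.

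The 8 other named genes that met the same pattern include products of the immediate early response. Like the 6, they were found by these contrasts and have no test here. Serpinb2, which encodes plasminogen activator inhibitor-2, went from 164 ± 29.95 (SD, n = 3) in control to 1154 ± 111 after Ang II and 93.3 ± 31.1 after potassium; the stimuli differed by 3.46 ± 0.19. Slc17a6, a vesicular glutamate transporter gene, went from 129.5 ± 38.2 to 553 ± 67.7 and 54.1 ± 18.5. Egr4, an early growth response transcription factor, went from 1037 ± 225 to 2591 ± 702 and 591 ± 190. These 3 differed more between the stimuli than any of the 6 genes, whose largest value was 1.61. The other 5 lay within the range of the 6: Prkaa1, a catalytic subunit of AMP-activated kinase, at 1.03 ± 0.08, Klf5 at 0.88 ± 0.10, the ERK phosphatase Dusp5 at 0.79 ± 0.08, the lipid droplet gene Plin2 at 0.78 ± 0.07 and Egr1 at 0.65 ± 0.06. Over all 21 probe sets with the pattern the difference ran from 0.62 to 3.46 with a median of 1.19. Over the 22 alternative settings the call after potassium was lost in 16 for Dusp5, 15 for Serpinb2 and 13 for Egr1. It was lost in 11 for Slc17a6, 10 for Klf5, 3 for Prkaa1, 3 for Plin2 and 1 for Egr4. The call after Ang II was lost in 11 settings for Klf5 and in 0 to 2 for the others.

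Patterns close to those of the 6 genes were also found outside the threshold. Closeness was the root mean square difference over the 9 arrays of log2 values centred within each preparation, over 14018 probe sets of other genes, and is a description. For Sdc1 the closest were Fosl1, a subunit of AP-1, at 0.0756 log2 units, Actr3b at 0.118 and Hmga1, a chromatin architecture gene, at 0.118. Fosl1 was at 0.39 ± 0.10 after Ang II, just outside the threshold, and -1.19 ± 0.10 after potassium. For Anxa2 the closest were Iars1, an aminoacyl-tRNA synthetase gene, at 0.0514, Dipk2a at 0.0556 and Pum3 at 0.0616. For Gbp2 they were Reln, which encodes reelin, at 0.0435, Egr1 at 0.0462 and the heme oxygenase gene Hmox1 at 0.0555, and for Bcr Egr1 at 0.0408, Plin2 at 0.0662 and Reln at 0.0674. Reln passed in neither contrast against control, at 0.29 ± 0.09 and -0.27 ± 0.09, while Bcr, with -0.27 ± 0.07 after potassium, lay just inside. Pex11a and Haus6 had the same closest gene, Tet3, which encodes a methylcytosine dioxygenase, at 0.123 from each; it was at 0.84 ± 0.12 after Ang II and -0.31 ± 0.12 after potassium. Next came Prkaa1 at 0.185 and Edem2 at 0.201 for Pex11a, and Grhl1 at 0.147 and Edem2 at 0.171 for Haus6.

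The labelled cell type was checked against markers. Of 16 zona glomerulosa markers 15 were measured and tested, among them Hsd3b1 at 25199 ± 1182 (SD, n = 3) in control, the angiotensin receptor gene Agtr1b at 2782 ± 268 and Dab2 at 11700 ± 285. Others of that list were dim, such as Shh at 76.7 ± 50.1 and Kcnk9 at 105 ± 84.2 in control. Cyp11b2 was not analysed here. Of the 5 measured markers of the zona fasciculata, the inner zone, Cyp17a1 and Sult2a1 were too dim to test, while Akr1b7 at 28312 ± 1030, Cyp11b1 at 3302 ± 1704 and Mrap at 4039 ± 919.7 in control were tested. The medulla marker Th read 735 ± 67, the fibroblast marker Dcn 5528 ± 512 and the endothelial marker Pecam1 1460 ± 172 in control. Kdr of the endothelial list read 7624 ± 731, Mgp of the fibroblast list 14183 ± 897 and the red blood cell marker Hbb 17735 ± 1431 in control. Slc18a1 of the medulla list and Vwf of the endothelial list were too dim to test. Rspo3 and Gli1 of the fibroblast list read 155 ± 69.9 and 142 ± 31.4 in control. The summed signal of each of the 10 marker lists overlapped between all 3 groups. Of the 99 measured markers Star and Mrap passed as higher after both stimuli, Acta2 as higher after Ang II, and Wnt4 as lower after Ang II than in control and than after potassium.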

How the data were processed

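The 9 arrays are 1 per tube, with 3 tubes in each of the control, Ang II and potassium groups. For every array the deposited table gives each probe set an intensity on a linear scale, called signal here. It was made with GCOS, the Affymetrix scanner software, per the submitters' processing notes; the version, the background step and the way probes were summarised are not stated in the sources used. The mean of the deposited intensities without the lowest and highest 2% was 500.17 to 500.19 on every array. Of 31099 probe sets 57 controls were left out. Symbols came from the platform annotation, updated through Entrez identifiers for 20758 probe sets and kept as annotated for 68; 436 probe sets had several symbols and 9780 none, and these were not named.

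Values were transformed as log2(signal + 16), and probe sets with a mean signal above the 40th percentile (18625) were tested. One model over the 9 arrays was fitted in limma 3.58.1 (R 4.3.3; lmFit, eBayes with an intensity trend), with group and preparation as terms and 4 residual and 10.66 prior degrees of freedom; p-values were adjusted by the Benjamini-Hochberg method over all tested probe sets of a contrast, with a threshold of 0.05. The fitting script was tested on simulated data. The pairing comes from the design text, and arrays of the same preparation in different groups deviated together (correlations of 0.107 to 0.27 in 9 pairs, against -0.206 to 0.036 in 18 pairs of different preparations).

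The 6 genes, the gene and marker lists and the motifs were chosen with earlier results of these data known. Genes named are the 6 and every other named gene with their pattern (up to 10), up to 4 genes with the smallest p per list and contrast among those past the threshold, the family relatives of the 6, the 3 genes closest in pattern to each, and markers. A gene with several probe sets is represented by the brightest. Alternatives were 3 scalings, other pseudocounts and filters, a fit without preparation as a term, a fit without the trend, and leaving out each preparation and each array. Promoters are from a RefSeq table of assembly GRCr8. The result of 1 gene list is not reported here.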

Additional observations from a re-analysis of the deposited data

How the results depend on the processing

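The signs of the 6 genes' mean differences, and their difference between the stimuli as past the threshold, held under all 22 alternative settings. The 6 were chosen on these same arrays, so this is a description. The counts over all probe sets moved more. Of 404 probe sets past the threshold for Ang II against control, 1004 for potassium against control, 893 between the stimuli and 21 in the opposite pattern, a fit without the replicate block, which ignores the pairing by preparation, left 193, 499, 442 and 4, and a fit without the intensity trend left 32, 256, 155 and 1. Scaling to array medians over all probe sets left 555 between the stimuli and 9 in the opposite pattern; with control array 2 also left out, an alternative chosen after seeing the data, 611 remained past the threshold for potassium and 6 in the pattern. Testing all probe sets without a filter left 9 in the pattern. Leaving out 1 preparation or 1 array gave 145 to 443 for Ang II, 446 to 972 for potassium, 270 to 1006 between the stimuli and 3 to 18 in the pattern. Fewer arrays are fitted in those, and for the other settings the cause was not tested.

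The number of the 6 genes past both contrasts against control fell from 6 to 0 without the replicate block, without the trend, and without preparation 1 or 3. It was 1 after median scaling over all probe sets, 1 with that scaling and control array 2 left out, 2 after scaling over tested probe sets, 3 after quantile normalization and 2 without a filter. Without control array 1, 2 or 3 it was 0, 2 and 0, without Ang II array 1, 2 or 3 it was 1, 4 and 4, and without potassium array 1, 2 or 3 it was 2, 2 and 3. It stayed at 6 with a pseudocount of 1 or 64 and with a filter at the 60th percentile. Among single differences, the rise of Anxa2 passed in 6 of the 22 settings, the fall of Gbp2 in 8 and that of Bcr in 7, while the fall of Sdc1 passed in all 22.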
